A study of Mus musculus with 33 samples.

Results

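Cadherins and protocadherins were compared between wild-type and Dlx1/2-/- ganglionic eminences, the swellings of the embryonic ventral forebrain that produce GABAergic neurons. The members were all symbols of the count table that begin with Pcdh, or with Cdh and a digit, together with Celsr1, Celsr2, Celsr3, Fat1, Fat3 and Fat4. The rule found 90 of 14664 symbols, and all 90 had enough reads to be tested, as did 14510 symbols in all. They comprised 17 Cdh genes, 12 protocadherin genes that stand outside the arrays, 12 Pcdha, 21 Pcdhb and 22 Pcdhg genes of the clustered arrays, and 6 Celsr and Fat genes.

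The RNA-seq samples were 4 wild-type libraries and 4 libraries of mice lacking Dlx1 and Dlx2, a pair of homeobox genes needed for the differentiation of ventral forebrain neurons. All 8 came from CD1 mice at e13.5, mid-gestation. The labels name 4 embryos of each genotype, 2 males and 2 females, and do not say which library came from which sex or whether each library was 1 embryo. The p-values therefore measure the spread between these libraries. The labels name no Cre driver and no sort, so each library is a mixture of the cells of the dissected tissue. Markers of pallial glutamatergic cells were among the reads, as given below.

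Cadherins are calcium-dependent adhesion proteins whose extracellular repeats bind the same or a related cadherin on the neighbouring cell. Classical type I and type II cadherins bind catenins inside the cell and hold adherens junctions together, and cells that carry different ones tend to sort apart, as at the border between the pallium and the striatal anlage. Protocadherins lack the catenin-binding tail. The clustered Pcdha, Pcdhb and Pcdhg genes give each neuron its own combination of isoforms, by which its branches recognise and avoid each other, while the Celsr and Fat proteins are very large cadherins of planar cell polarity.

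Total counts ranged from 14.4 to 117 M reads per library, and the members took 0.247 to 0.292% of them. Dlx1, measured first as a check of the labels, lay between 119.4 and 128.8 CPM (read counts scaled to the size of each library) in wild-type libraries and between 21.5 and 26.1 CPM in knockout libraries. Dlx2 lay between 15.3 and 29.0 CPM and between 1.02 and 1.501 CPM. Both were lower in all 4 knockout libraries. Which part of each gene the allele removes was not stated in any source at hand, so the reads that were left may lie outside it. CPM is not corrected for transcript length, so levels are compared between genotypes and not between genes.

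Of the 90 genes, 1 was higher in the knockout and 0 were lower at an adjusted p under 0.05 (edgeR quasi-likelihood test, adjusted over all tested genes). Over all genes 0.586% were called higher and 0.896% lower, 1.48% in all, so the members' share lay near the background. Cdh7 was the gene that rose. Without adjustment 8 of the 90 genes, or 8.89%, had a p under 0.05, against 7.69% of all genes. These were Cdh7, Cdh11, Cdh6, Cdh22, Pcdh18 and Pcdh15 with higher means in the knockout, and Pcdh20 and Pcdh8 with lower means. DESeq2 called 1 member higher, again Cdh7, and 0 lower, beside 1.57% of all genes higher and 1.64% lower, 3.21% in all. The 4 libraries of one genotype lay wholly above the 4 of the other for 4 members, all with the knockout on top (Cdh7, Cdh11, Cdh22 and Pcdh15), and for 0 members with the wild type on top. Over all genes the groups were apart in 5.97%, 2.88% with the knockout higher and 3.09% with it lower.

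Most members, like most of all genes tested, had a narrow interval around no change. The median log2 difference, knockout over wild type, was -0.0142 over the 90 genes and -0.0027 over all genes tested, with 42 members above 0 and 48 below. For 61 of the 90 genes (67.8%) the 95% confidence interval of the difference lay inside 1.5-fold in either direction, against 72.1% of all genes. For 87 of 90 it lay inside 2-fold, against 13352 of the 14510 genes tested. The 3 members outside that range were Cdh7, Cdh15 and Pcdhb13.

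**Figure D1:**
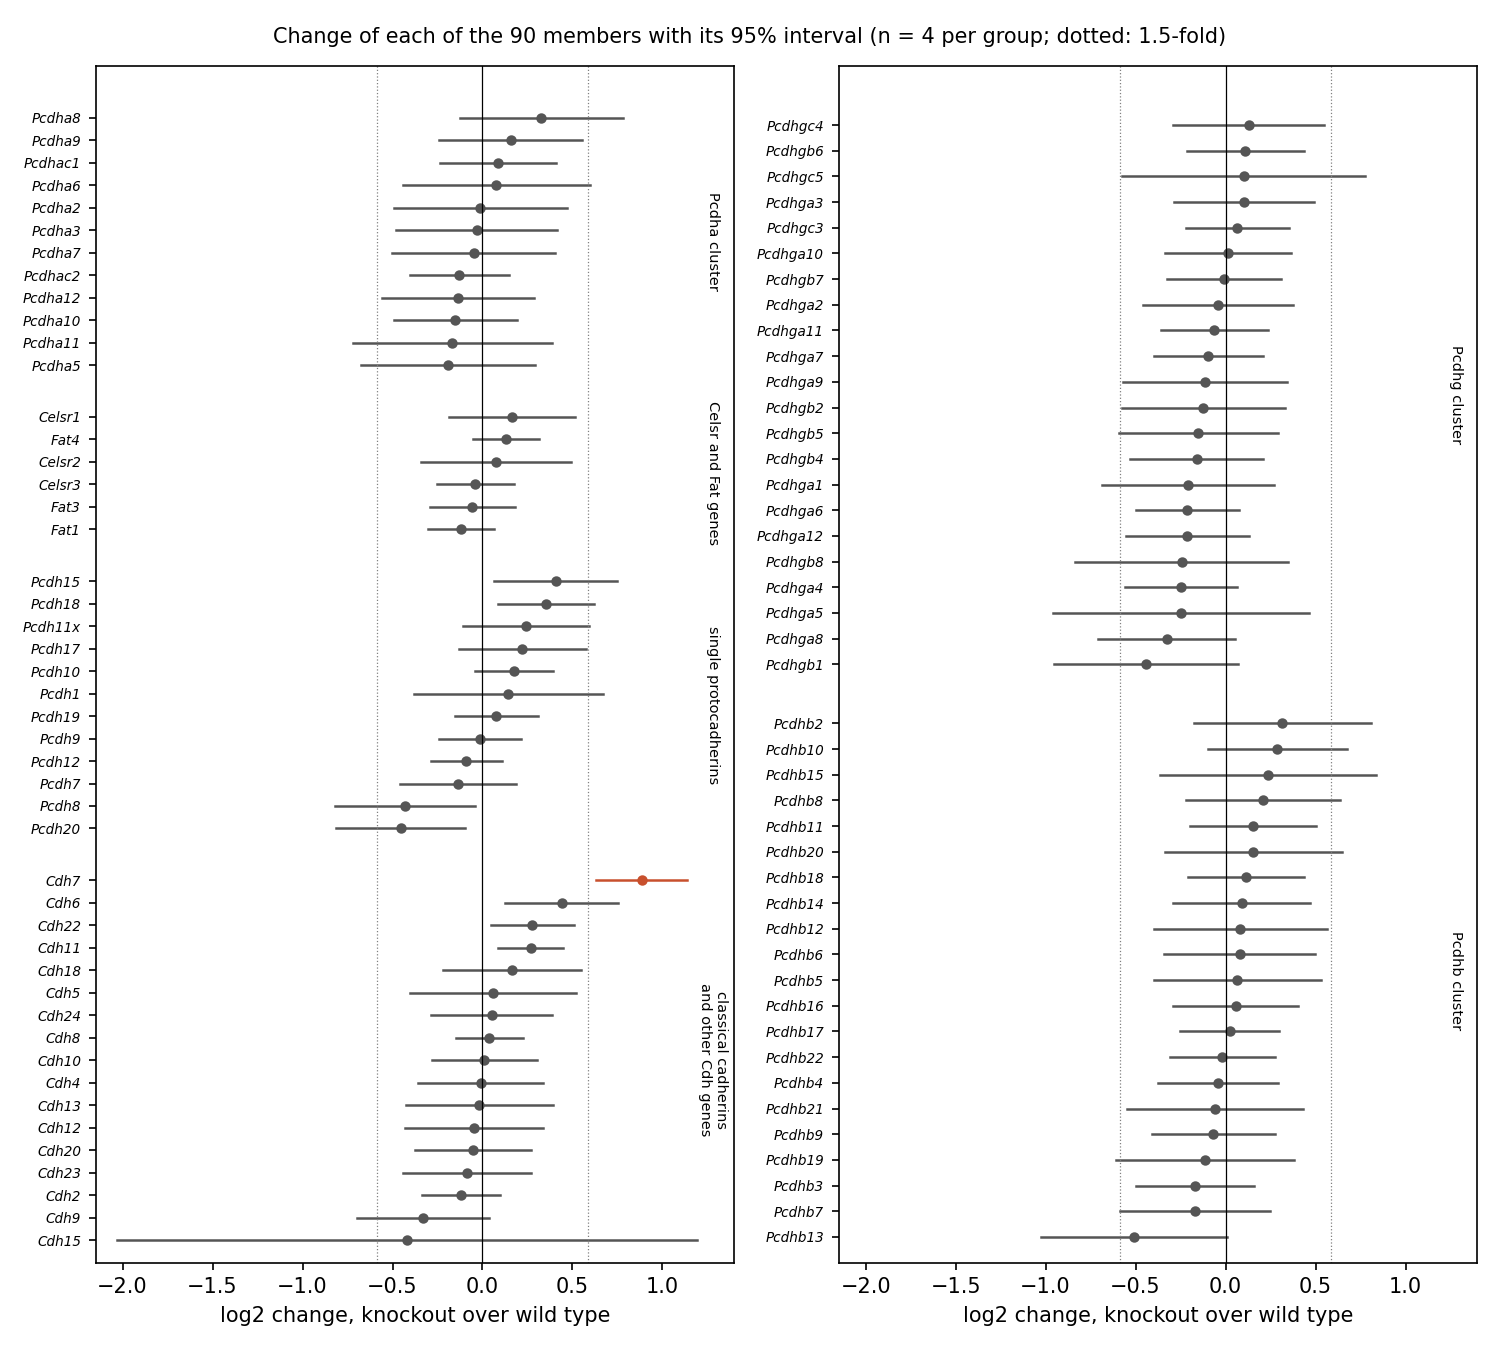
Log2 difference, knockout over wild type, of each of the 90 genes by class, with 4 libraries a group; a point is 1 gene, the bar is its 95% confidence interval, dotted lines mark 1.5-fold, and red marks the gene called at an adjusted p under 0.05. Cdh7 stands at 0.88 and the other genes lie between -0.51 and 0.44.

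Among the Cdh genes, 1 of 17 was called, higher, beside 0.586% of all genes called higher. An unadjusted edgeR p under 0.05 was found for 4 of the 17 (23.5%), against 7.69% of all genes, a difference that was not tested. The class median was 0.01 on the log2 scale with 9 genes above 0. Cdh7 is a type II classical cadherin known from the neural crest and from restricted regions of the neural tube. Its level was 20.59, 20.03, 16.51 and 17.25 CPM in wild-type replicates 1 to 4 and 37.46, 37.65, 32.22 and 30.01 CPM in the knockout. Every knockout library was above every wild-type library, and the groups did not overlap.

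The mean of Cdh7 was 18.6 ± 2.02 CPM (SD, n = 4) in the wild type and 34.3 ± 3.82 CPM (SD, n = 4) in the knockout. This was a log2 difference of 0.88 (SE 0.11), or 1.85-fold (95% confidence interval 1.55 to 2.20), with an edgeR adjusted p of 0.00298. The raw reads behind it were 389 to 2352 per wild-type library and 482 to 1801 per knockout library. Cdh7 passed the threshold in all 15 alternative fits, and leaving out any 1 library gave log2 differences from 0.83 to 0.94.

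Replicates 1 and 2 alone gave a Cdh7 log2 difference of 0.89 (edgeR adjusted p 0.000569), and replicates 3 and 4 alone gave 0.88 (adjusted p 0.00402). In the authors' deposited table the log2 difference of Cdh7 was 0.88, with a p of 1.88e-08 and an adjusted p of 3.06e-06. No other member had an adjusted p under 0.05 in the authors' deposited table, where 1 of 90 members (higher) and 2.24% of all genes did, 1% higher and 1.23% lower. The reference table of assembly GRCm38 gives Cdh7 as an older synonym of Cdh20, and the count table holds a row for each symbol. The row Cdh20 had 6.02 ± 1.06 CPM in the wild type and 5.80 ± 0.45 CPM in the knockout (n = 4 each), so the difference belongs to the row named Cdh7.

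RefSeq (GRCm38.p6) places 3 start sites of Cdh7 close together on the plus strand of chromosome 1, and their promoter windows are shown because this was the gene that changed. Each window runs from 250 bases before the start to 50 after it, 5′ to 3′ on the gene's strand. Capitals mark TAATT or its reverse complement AATTA, the core letters of homeodomain binding sites, searched on both strands. The windows are at chr1:109982650-109982949, chr1:109983052-109983351 and chr1:109983473-109983772.
Cdh7 window 1: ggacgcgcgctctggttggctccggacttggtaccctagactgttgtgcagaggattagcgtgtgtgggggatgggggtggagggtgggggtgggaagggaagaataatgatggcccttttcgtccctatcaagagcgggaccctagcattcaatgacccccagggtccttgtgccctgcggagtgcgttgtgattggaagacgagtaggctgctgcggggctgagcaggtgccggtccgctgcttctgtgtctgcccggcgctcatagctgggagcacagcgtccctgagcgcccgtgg
Cdh7 window 2: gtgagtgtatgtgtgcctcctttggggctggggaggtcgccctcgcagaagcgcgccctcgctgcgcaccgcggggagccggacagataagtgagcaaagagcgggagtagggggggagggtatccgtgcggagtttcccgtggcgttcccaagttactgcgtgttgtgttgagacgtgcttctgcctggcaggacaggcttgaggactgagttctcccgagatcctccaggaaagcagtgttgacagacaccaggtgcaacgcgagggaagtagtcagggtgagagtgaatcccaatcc
Cdh7 window 3: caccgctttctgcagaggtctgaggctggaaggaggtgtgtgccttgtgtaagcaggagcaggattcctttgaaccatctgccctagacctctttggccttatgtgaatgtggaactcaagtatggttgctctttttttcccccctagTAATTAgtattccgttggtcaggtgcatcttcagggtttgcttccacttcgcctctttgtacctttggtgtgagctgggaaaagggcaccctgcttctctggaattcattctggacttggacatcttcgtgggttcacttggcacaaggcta
The first and second windows held none of these letters. The third held the run TAATTA, in which TAATT and AATTA overlap. TAATT or AATTA occurred in 27.0% of the 32851 promoter windows of all genes and in 7 of the 29 windows (24.1%) of the 26 members that had an entry. The longer TAATTA occurred in 5.29% of all windows and in 1 of 29 member windows. A match is a description of the letters and not of binding.

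Beside Cdh7 in the RefSeq gene order lie Serpinb8 and Cdh19, neither of which was tested. The nearest tested neighbours did not pass the test. Dsel, further along the chromosome, had a log2 difference of -0.25 (SE 0.20) and Cntnap5a, the gene after it, 0.24 (SE 0.11).

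Cdh11, a type II cadherin of mesenchyme and of the developing brain, had 83.8, 82.8, 87.7 and 88.7 CPM in the wild type and 103.5, 92.6, 107.3 and 109.8 CPM in the knockout. Every knockout value was above every wild-type value. The log2 difference was 0.27 (SE 0.08) and did not pass the edgeR test, with an adjusted p of 0.221. With the replicate number as a block it was 0.27 (SE 0.05) with an edgeR adjusted p of 0.0149. This block, here and below, treats libraries of the same number as pairs, which the labels do not state. Deviations of wild-type replicate 1 from its group mean correlated at 0.155 with knockout replicate 1 and at 0.603 with knockout replicate 2. The neighbours of Cdh11 on chromosome 8 are the type II cadherin genes Cdh8 and Cdh5, whose log2 differences were 0.04 (SE 0.08) and 0.06 (SE 0.21).

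Cdh22, a type II cadherin of the brain, had 32.7, 29.1, 34.5 and 37.5 CPM in the wild type and 37.7, 43.0, 37.9 and 43.5 CPM in the knockout. The groups touched without overlapping, since the highest wild-type value and the lowest knockout value nearly met. Its log2 difference of 0.28 (SE 0.10) did not pass the test (edgeR adjusted p 0.435).

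Cdh6 marks the lateral ganglionic eminence and Cdh4 (R-cadherin) the cortex beside it, a known case of sorting between neighbouring brain compartments. Cdh6 had 5.078, 4.204, 4.924 and 5.834 CPM in the wild type and 7.164, 7.086, 5.548 and 7.272 CPM in the knockout. Of the knockout libraries, replicate 3 lay inside the wild-type range and the other 3 lay above it. The log2 difference of 0.44 (SE 0.14) did not pass (edgeR adjusted p 0.267). Cdh4 had 72.2 ± 15.1 CPM in the wild type and 71.8 ± 9.25 CPM in the knockout (n = 4 each), a log2 difference of -0.01 with a 95% confidence interval from -0.36 to 0.34.

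Cdh2 (N-cadherin), the main classical cadherin of neuroepithelial junctions, had 357.3, 320.1, 359.1 and 366.1 CPM in the wild type and 297.6, 290.7, 356.1 and 346.6 CPM in the knockout. The groups overlapped. Its log2 difference was -0.12 (SE 0.10, 95% confidence interval -0.33 to 0.10), which lies inside 1.5-fold. Cdh8, a type II cadherin found in the striatum, was level at 84.7 ± 2.22 and 87.0 ± 6.91 CPM (n = 4 each), with an interval of the log2 difference from -0.15 to 0.22.

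Cdh15 (M-cadherin), a cadherin of skeletal muscle, was the Cdh gene with the lowest log2 difference, -0.42, and the widest error (SE 0.72). Its counts were 284, 4, 27 and 33 in the wild type and 53, 100, 7 and 1 in the knockout. Scaled to library size, these were 2.487, 0.1978, 1.146 and 1.375 CPM in the wild type and 1.257, 2.09, 0.4679 and 0.03848 CPM in the knockout. The scaled levels varied more within each genotype than between them. The 95% confidence interval from -2.03 to 1.19 shows that no statement about its direction is possible from these libraries.

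**Figure D2:**
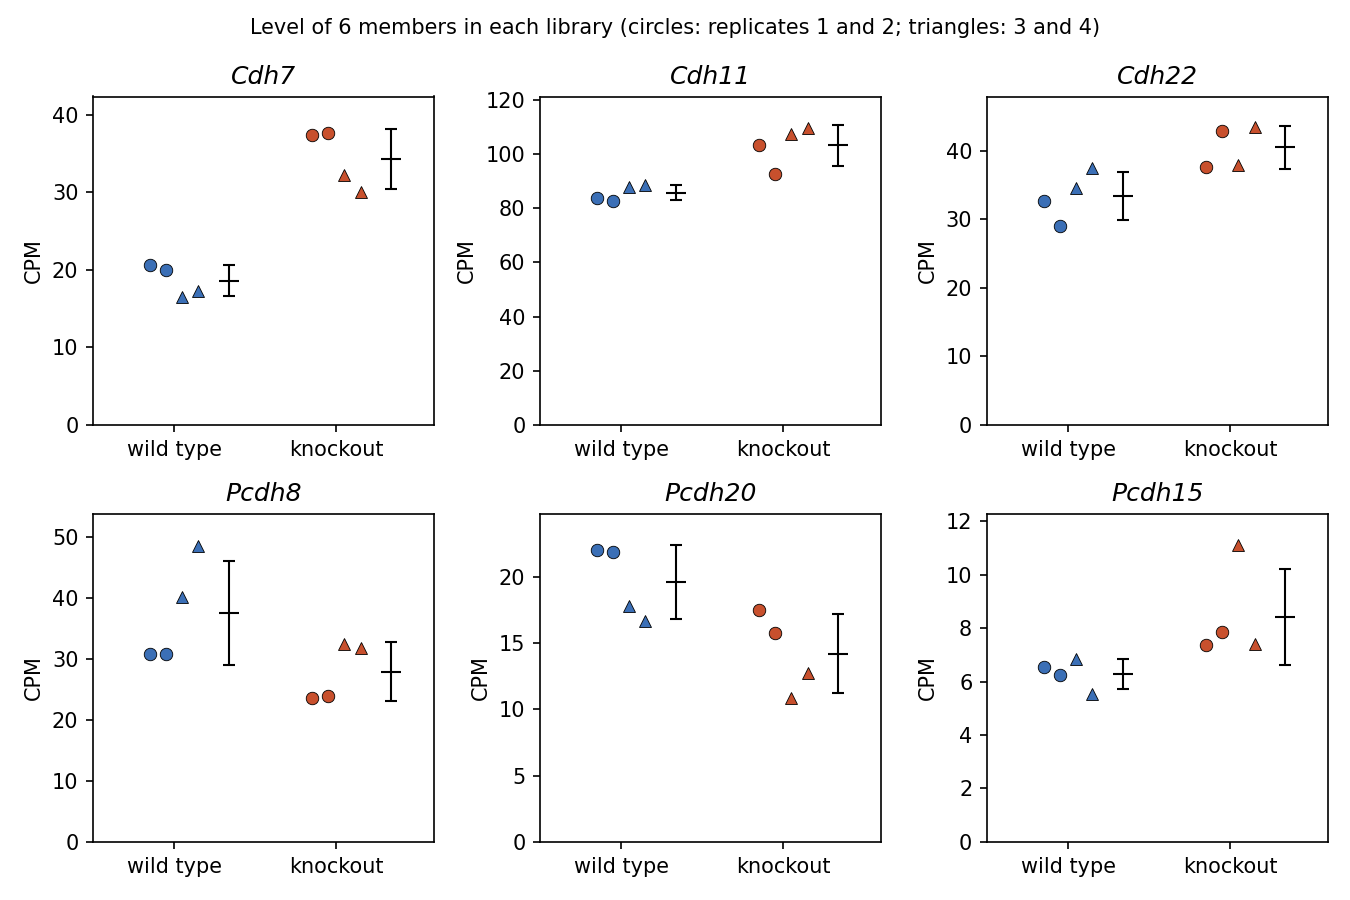
Level in CPM of Cdh7, Cdh11, Cdh22, Pcdh8, Pcdh20 and Pcdh15 in each wild-type (blue) and knockout (red) library, with circles for replicates 1 and 2 and triangles for replicates 3 and 4, and the mean with SD (n = 4) beside each group. The 4 knockout libraries of Cdh7 sit at 30.01 CPM and above, over a wild-type range of 16.51 to 20.59 CPM.

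Of the 12 protocadherin genes outside the clusters, 0 passed the edgeR test, beside 1.48% of all genes. DESeq2 called 0 of them as well, beside 3.21% of all genes. An unadjusted edgeR p under 0.05 was found for 4 of the 12 (33.3%), against 7.69% of all genes, a difference that was not tested. The class median was 0.11 on the log2 scale with 7 genes above 0. The class holds 4 delta-1 genes (Pcdh1, Pcdh7, Pcdh9, Pcdh11x), 5 delta-2 genes (Pcdh8, Pcdh10, Pcdh17, Pcdh18, Pcdh19) and 3 others (Pcdh12, Pcdh15, Pcdh20).

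Pcdh20 had the lowest log2 difference of the single protocadherins. Its level was 22.1, 21.9, 17.8 and 16.7 CPM in the wild type and 17.5, 15.7, 10.8 and 12.8 CPM in the knockout. The groups overlapped because knockout replicate 1 was above wild-type replicate 4, but within replicates 1 and 2 and within replicates 3 and 4 both knockout libraries were below both wild-type ones. The log2 difference of -0.46 (SE 0.16) did not pass without a block (edgeR adjusted p 0.362) and passed with the replicate number as a block, at -0.47 (SE 0.08) and an adjusted p of 0.0117. In the authors' deposited table Pcdh20 had a log2 difference of -0.46 and an adjusted p of 0.324.

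Pcdh8, also called arcadlin, is a delta-2 protocadherin that in neurons takes part in the removal of N-cadherin from the synaptic surface. It had 30.8, 30.9, 40.1 and 48.5 CPM in the wild type and 23.6, 23.9, 32.4 and 31.8 CPM in the knockout. As with Pcdh20, the groups overlapped as a whole and were apart within each pair of replicates. The log2 difference was -0.43 (SE 0.18, edgeR adjusted p 0.527) without a block and -0.42 (SE 0.07, adjusted p 0.00955) with it.

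With the replicate block, 2 members were higher (Cdh7 and Cdh11) and 2 were lower (Pcdh8 and Pcdh20), beside 2.22% of all genes called higher and 2.16% called lower, 4.38% in all. The block raised the calls over all genes from 215 to 635, of which 215 were shared. A term for replicates 1 and 2 against 3 and 4 called the same 4 members, beside 2.29% of all genes higher and 2.32% lower, 4.61% in all. Within replicates 1 and 2 alone the log2 differences of Pcdh20 and Pcdh8 were -0.40 and -0.38, and within replicates 3 and 4 alone they were -0.54 and -0.46. None of these 4 values passed the edgeR test in its pair of replicates, where adjusted p-values ran from 0.051 to 0.184.

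The promoter windows of these protocadherin genes are shown because their call turned on the block. Both genes lie on the minus strand of chromosome 14, at chr14:88471347-88471646 for Pcdh20 and chr14:79771263-79771562 for Pcdh8 (RefSeq, GRCm38.p6), with capitals as above.
Pcdh20: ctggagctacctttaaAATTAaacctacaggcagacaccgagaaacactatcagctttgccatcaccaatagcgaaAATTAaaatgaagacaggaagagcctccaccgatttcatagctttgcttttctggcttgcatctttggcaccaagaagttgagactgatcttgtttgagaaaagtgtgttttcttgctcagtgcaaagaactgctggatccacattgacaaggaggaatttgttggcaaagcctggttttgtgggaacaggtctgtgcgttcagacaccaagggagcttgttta
Pcdh8: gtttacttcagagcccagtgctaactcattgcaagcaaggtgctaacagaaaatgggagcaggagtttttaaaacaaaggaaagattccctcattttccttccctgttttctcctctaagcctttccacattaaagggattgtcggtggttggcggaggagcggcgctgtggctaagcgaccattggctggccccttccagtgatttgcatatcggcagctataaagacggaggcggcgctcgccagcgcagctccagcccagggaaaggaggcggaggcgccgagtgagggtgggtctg
The Pcdh20 window held AATTA at 2 places and the run TAATTA at 0, and the Pcdh8 window held none of these letters. The genes on either side of Pcdh20 are Tdrd3 and Pcdh9, with log2 differences of -0.13 (SE 0.12) and -0.02 (SE 0.10). Beside Pcdh8 lie Cnmd, which was not tested, and Olfm4, which had 1.21 CPM in the wild type and 0.61 CPM in the knockout, a log2 difference of -1.004 (SE 0.36) that did not pass (edgeR adjusted p 0.383). Pcdh17, the gene after Olfm4, had 0.22 (SE 0.16).

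Pcdh15, which with Cdh23 forms the tip links of inner ear hair cells, had 6.54, 6.23, 6.83 and 5.54 CPM in the wild type and 7.35, 7.84, 11.1 and 7.39 CPM in the knockout. All knockout values were above all wild-type values, and knockout replicate 3, the shallowest library, stood apart at the top. The log2 difference of 0.41 (SE 0.15) did not pass (edgeR adjusted p 0.45). Without that library it was 0.26. Its partner Cdh23 had a log2 difference of -0.09 (SE 0.16).

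Pcdh10 (OL-protocadherin), which is needed for the growth of striatal axons and for the passage of thalamocortical axons through the ventral forebrain, had 207.9, 182.4, 214.0 and 212.8 CPM in the wild type. In the knockout it had 214.7, 208.1, 255.4 and 243.9 CPM. The groups overlapped, and the log2 difference of 0.17 (SE 0.10) did not pass (edgeR adjusted p 0.891). Pcdh19, an X-linked delta-2 protocadherin known from epilepsy, had 79.8 ± 7.59 and 84.2 ± 8.59 CPM (n = 4 each). Pcdh9, a delta-1 protocadherin, had 72.5 ± 6.99 and 71.7 ± 6.54 CPM (n = 4 each). Both 95% confidence intervals lay inside 1.5-fold, from -0.15 to 0.31 for Pcdh19 and from -0.24 to 0.21 for Pcdh9 on the log2 scale.

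Pcdh18 had the largest positive log2 difference among the delta-2 genes, 0.35 (SE 0.12), and did not pass (edgeR adjusted p 0.315). Its values were 43.0, 35.2, 48.8 and 39.7 CPM in the wild type and 56.7, 47.7, 50.8 and 57.9 CPM in the knockout. A single pair overlapped, wild-type replicate 3 above knockout replicate 2.

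**Figure D3:**
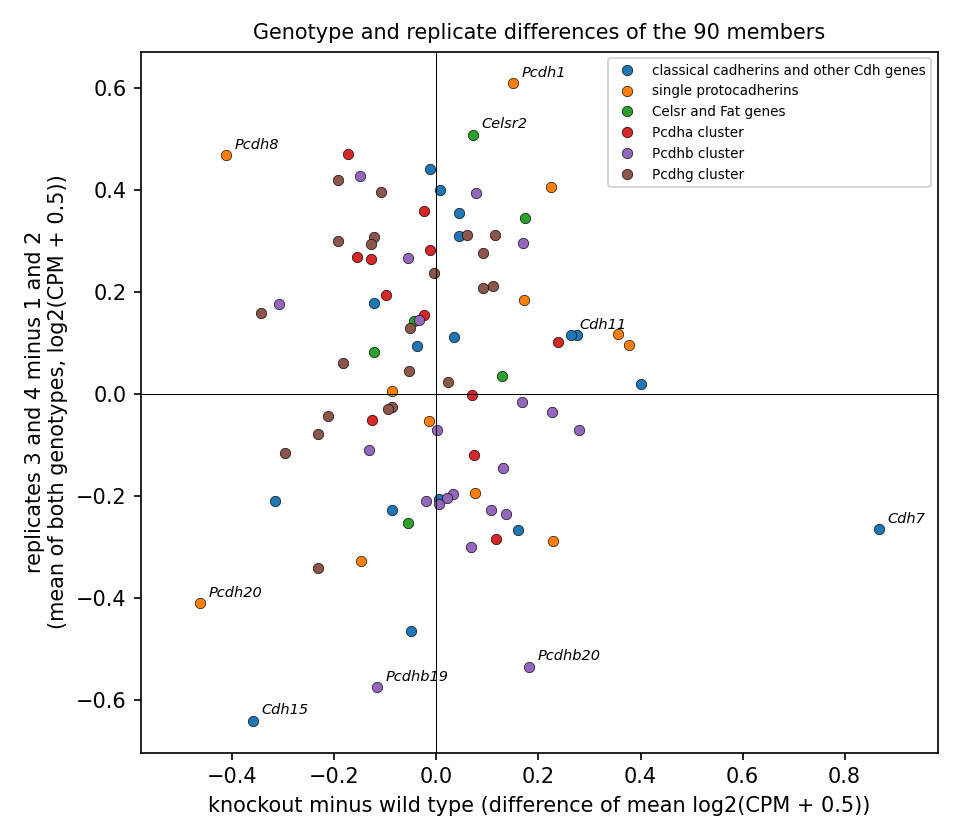
For each of the 90 genes, coloured by class, the vertical axis gives replicates 3 and 4 minus replicates 1 and 2 (mean of both genotypes) and the horizontal axis knockout minus wild type, both as differences of log2(CPM + 0.5). The replicate shift is the larger of the pair in 63 of 90 genes, and Cdh7 stands out along the genotype axis.

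Replicates 3 and 4 stood apart from replicates 1 and 2 in both genotypes. For 32 of the 90 genes (35.6%) both libraries of the later-numbered pair lay on the same side of both of the earlier-numbered pair in each genotype, 22 above and 10 below. Over all genes this share was 47.5%. The shift between replicate pairs was larger than the difference between genotypes for 63 of 90 members (70%) and for 73.7% of all genes. The labels give no batch or date, and what separates the pairs was not tested.

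Pcdh1, a delta-1 protocadherin, was 1.53-fold higher in replicates 3 and 4 than in replicates 1 and 2 across the genotypes, and Celsr2 was 1.42-fold higher. Pcdhb19 was 1.49-fold lower and Pcdhb20 was 1.45-fold lower. The genotype log2 difference of these 4 genes lay between -0.12 and 0.15, and none passed the test.

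The clustered protocadherins lie in tandem on chromosome 18. Each Pcdha or Pcdhg transcript joins 1 variable first exon to constant exons that its whole cluster shares, while each Pcdhb gene is a single exon with near copies beside it. How reads of shared or near-identical sequence were assigned was not stated in any source at hand. The value of each isoform is therefore uncertain, and summed levels are given beside them.

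**Figure D4:**
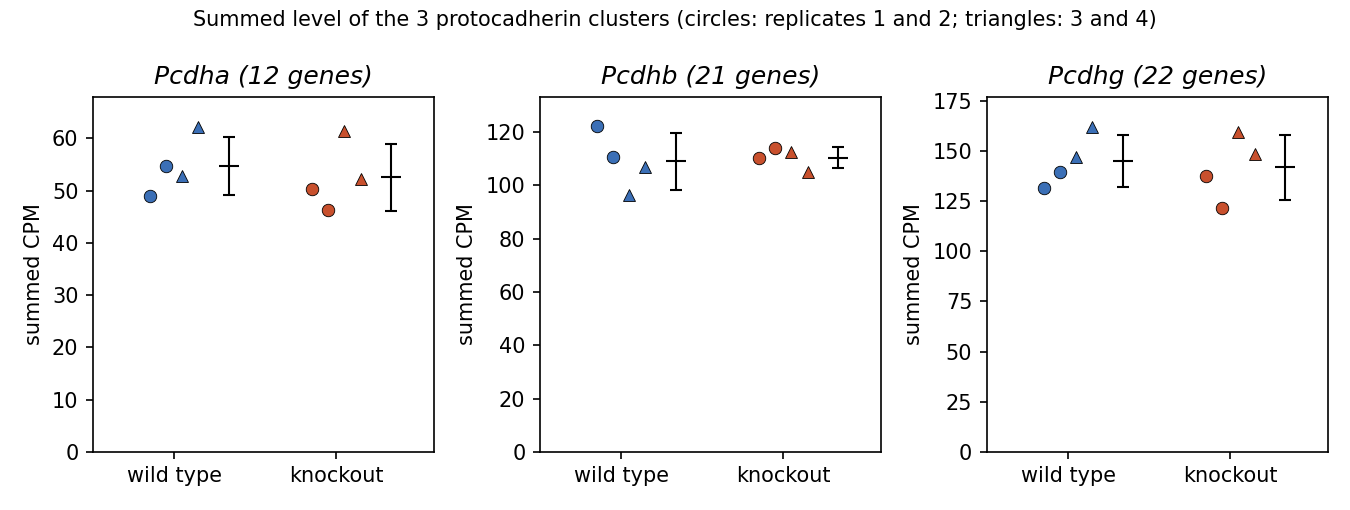
Summed CPM of the 12 Pcdha, 21 Pcdhb and 22 Pcdhg genes in each wild-type (blue) and knockout (red) library, with circles for replicates 1 and 2, triangles for replicates 3 and 4, and the mean with SD (n = 4) beside each group. The genotypes overlap in each cluster, with knockout means at 96.1, 101.3 and 97.8% of the wild type.

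None of the 55 cluster genes passed the edgeR test, 0 had an unadjusted edgeR p under 0.05, and DESeq2 called 0. Over all genes these shares were 1.48%, 7.69% and 3.21%. At such shares of called genes, few or no calls among 55 genes lie near the background. The summed Pcdha level was 49.0, 54.7, 52.9 and 62.2 CPM in the wild type and 50.3, 46.2, 61.4 and 52.3 CPM in the knockout. The groups overlapped. The knockout mean was 96.1% of the wild-type mean, a difference smaller than either SD (54.69 ± 5.52 and 52.55 ± 6.396 CPM, n = 4 each).

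The summed Pcdhb level was 122.2, 110.6, 96.4 and 107.0 CPM in the wild type and 110.4, 114.0, 112.4 and 105.0 CPM in the knockout. All 4 knockout values lay inside the wild-type range. Its knockout mean was 101.3% of the wild type (109.1 ± 10.6 and 110.5 ± 3.94 CPM, n = 4 each).

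The summed Pcdhg level was 131.4, 139.6, 147.0 and 161.9 CPM in the wild type and 137.6, 121.5, 159.2 and 148.6 CPM in the knockout. The groups overlapped, with the lowest value in the knockout and the highest in the wild type. Here the knockout mean was 97.8% of the wild type (145.0 ± 12.9 and 141.7 ± 16.1 CPM, n = 4 each). Leaving out any 1 library kept the 3 clusters between 90.7 and 105.5% of the wild type.

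Single isoforms scattered around these sums. The Pcdha genes ran from -0.19 (Pcdha5, SE 0.22) to 0.33 (Pcdha8, SE 0.20) on the log2 scale, with 4 of 12 above 0. Pcdha9 and Pcdha11, among the most counted variable isoforms, stood at 0.16 (SE 0.18) and -0.17 (SE 0.25). The Pcdhb genes ran from -0.51 (Pcdhb13, SE 0.23, edgeR adjusted p 0.673) to 0.32 (Pcdhb2, SE 0.22), with 13 of 21 above 0. Pcdhb17, Pcdhb16 and Pcdhb19, the most counted Pcdhb genes, stood at 0.02, 0.06 and -0.12.

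The Pcdhg genes ran from -0.44 (Pcdhgb1, SE 0.23, edgeR adjusted p 0.814) to 0.13 (Pcdhgc4, SE 0.19), and 16 of 22 were below 0 with a class median of -0.12. Over all genes 51% were below 0. Isoforms of a cluster share exons and libraries, so they are not independent. Pcdhgc4 is the isoform known for its part in the survival of cortical interneurons, cells born in the ganglionic eminences. It had 5.55, 5.24, 6.62 and 7.04 CPM in the wild type and 5.76, 6.02, 9.56 and 5.73 CPM in the knockout. The knockout values lay within the wild-type range except replicate 3, which was above it. Without that library the log2 difference of Pcdhgc4 was -0.06. Pcdhga11 and Pcdhgb7 had log2 differences of -0.06 (SE 0.13) and -0.01 (SE 0.14).

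The last variable exons of the Pcdha and Pcdhg clusters encode the C-type isoforms, which many neurons express constitutively rather than by random choice. C-type isoforms took 43.05 ± 1.601% of the summed Pcdha counts in the wild type and 42.0 ± 2.821% in the knockout (SD, n = 4 each). They took 40.6 ± 3.21% and 43.6 ± 1.83% of the summed Pcdhg counts (SD, n = 4 each). Both pairs of groups overlapped. Pcdhac2, which is needed for the tiling of serotonergic axons, took 32.7 to 39.1% of its cluster over the 8 libraries, with a log2 difference in level of -0.13 (SE 0.12). Pcdhgc3 took 33.1 to 40.5% of the Pcdhg counts, with a log2 difference in level of 0.06 (SE 0.13). The gA subfamily took 38.0 ± 2.20 and 35.6 ± 2.81% and the gB subfamily 21.39 ± 1.217 and 20.85 ± 1.404% (SD, n = 4 each), and these groups overlapped too.

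Of the 6 Celsr and Fat genes, 0 passed the edgeR test and 0 had an unadjusted edgeR p under 0.05, and DESeq2 called 0. Over all genes these shares were 1.48%, 7.69% and 3.21%, so 0 of 6 lies near the background. All 6 intervals lay inside 1.5-fold, against 72.1% of all genes. Celsr1, a planar polarity cadherin of the neuroepithelium, had the largest positive log2 difference, 0.17 (SE 0.16), with 98.3 ± 20.6 and 110.2 ± 17.5 CPM (n = 4 each). Celsr3, which is needed for axon tracts that cross the ventral forebrain, had 135.7, 137.6, 131.7 and 146.5 CPM in the wild type and 123.9, 120.0, 155.4 and 137.7 CPM in the knockout. The knockout values spanned the whole wild-type range, and the log2 difference was -0.04 (SE 0.10).

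Fat4, the receptor of the Dchs1 ligand, had 189.0, 182.6, 174.1 and 196.6 CPM in the wild type and 211.3, 184.4, 207.0 and 210.0 CPM in the knockout. Of the knockout libraries, 3 lay above the wild-type range and replicate 2 lay inside it. Its log2 difference was 0.13 (SE 0.08). Fat1, a cadherin of apical junctions in radial glia, stood at -0.12 (SE 0.08) and Fat3 at -0.06 (SE 0.11).

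The proteins that work with cadherins were followed as a list of 50 genes, of which 44 were in the table and tested: catenins, nectins, calsyntenins, planar polarity proteins, the WAVE complex that delta protocadherins recruit, kinases bound by clustered protocadherins, and chromatin factors that act on the clusters. Of these, 1 was higher and 0 were lower by the edgeR test, beside 0.586% of all genes called higher and 0.896% lower, so this count too lay near the background. The list's median log2 difference was 0.01, and 26 of 44 were above 0. The gene called was Ankrd6 (Diversin), a Dishevelled-binding protein of planar polarity. It had 86.6, 95.9, 87.7 and 95.3 CPM in the wild type and 118.5, 119.1, 125.0 and 120.8 CPM in the knockout. The groups lay far apart beside their spread. The log2 difference was 0.40 (SE 0.07, edgeR adjusted p 0.0245). Leaving out any 1 of the 8 libraries took it out of the calls, with adjusted p-values from 0.0525 to 0.12, while its log2 difference stayed between 0.38 and 0.43. Ankrd6 was called in 7 of the 15 alternative fits. With the replicate block its log2 difference was 0.40 (SE 0.05, edgeR adjusted p 0.00186).

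Marker genes of other cells give the composition beside these values, and in bulk tissue fewer cells of a type and less RNA per cell cannot be told apart. Of 10 ganglionic eminence markers, 5 fell (Lhx6, Lhx8, Ebf1, Gad1 and Gad2) and 0 rose by the edgeR test, with 4 of the 10 above 0 on the log2 scale. The summed level of all 10 was 617.5 to 647 CPM in wild-type libraries and 363.2 to 443.9 CPM in knockout libraries. The 8 radial glia markers summed to 1964 to 2445 CPM and 2503 to 3069 CPM, with 0 called. Fabp7 held the largest part of that sum, with means of 1004 and 1284 CPM (log2 difference 0.36, SE 0.17). All 8 were above 0 on the log2 scale, and the groups did not overlap for 1 of them. The choroid plexus markers (5 of 8 in the table, 3 tested) summed to 11.3 to 13.4 CPM and 20.4 to 28.4 CPM. Most of that sum was Otx2, which was called higher (10.1 and 23.2 CPM, log2 difference 1.199), while Clic6 and Lmx1a stood at -1.09 and -0.34 and did not pass, and the list's median was -0.34. Wnt8b had means of 0.62 and 0.06 CPM, and Ttr, the defining marker of choroid plexus, 0.43 and 0.57 CPM, both too low to be tested. The summed level of the radial glia list and the level of Otx2 were higher in the knockout, as Cdh7 was. The summed level of the ganglionic eminence list was lower. The part of these lists and of Otx2 in the Cdh7 result was not tested.

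Endothelial markers summed to 178.3 to 240.2 CPM in the wild type and 168.3 to 222.6 CPM in the knockout. Cdh5 (VE-cadherin) and Pcdh12, a pair of endothelial members, had log2 differences of 0.06 (SE 0.21) and -0.09 (SE 0.09). Of the pericyte and mesenchyme list, 9 of 10 genes were in the table and summed to 68.7 to 83.7 and 77.0 to 89.8 CPM. Pallial glutamatergic markers (10 of 10) summed to 607.6 to 728.3 and 637.4 to 813.6 CPM, and microglia markers (8 of 8) to 52.9 to 67.4 and 56.4 to 66.4 CPM. Erythroid markers (6 of 8) summed to 1690 to 1921 and 1435 to 2058 CPM. These 5 lists overlapped between genotypes and had 0 genes called. No marker of these lists was at 0 in all libraries.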

How the data were processed

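RNA was taken from ganglionic eminences of 4 wild-type and 4 Dlx1/2-/- samples. The authors deposited unnormalized read counts for each gene symbol. Beside them stand log2 changes, log2 mean levels, likelihood ratio scores and p-values that the authors computed, per the file headers. STAR 2.4.2a, bcl2fastq and genome build mm9 are named in the submitters' processing notes. Counting tool, annotation and strand setting were not stated in any source at hand, so overlapping or antisense genes may share reads. The labels call the molecule polyA RNA, while the protocol names a ribosome-depletion kit. The deposited ChIP-seq files were not used here.

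Counts were tested with edgeR 4.0.16 (quasi-likelihood test, TMM scaling, filterByExpr with a minimum count of 10, Benjamini-Hochberg threshold 0.05) in R 4.3.3, on all genes. SEs and 95% intervals come from that fit. Its calls and log2 differences were checked on simulated counts with known changes, where interval coverage was computed without a pass limit. Alternatives were DESeq2 1.42.0, RLE scaling, no filter, a replicate block, a term for replicates 1 and 2 against 3 and 4, each such pair of replicates alone, and leaving out each library. Shifts between replicate pairs used log2(CPM + 0.5). Replicate numbers come from the labels' titles, which do not say what a number marks. Deviations from the group means correlated between same-numbered libraries at 0.155, 0.293, 0.374 and 0.482. Replicate 1 of the wild type correlated best with replicate 2 of the knockout (0.603). Replicate 2 of the wild type correlated best with replicate 1 of the knockout (0.394). The main fit did not pair libraries, and the numbers served as pairs only in the replicate block. Libraries of a group were not duplicates: their chi-square per gene ran from 14.6 to 98.1.

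Of the 90 symbols, 89 matched a RefSeq gene table of GRCm38, used for names and gene order. Pcdhgb8 did not. The members and lists were chosen with earlier results of these data known. Named are members called in the fit, those whose groups do not overlap, and per class the 3 with the highest mean CPM and those with the highest and lowest log2 difference. Of the partner list, called genes are named. Pcdh8, Pcdh1, Pcdh12, Pcdh17, Pcdh18, Pcdhb20, Celsr2, Cdh4, Cdh5, Cdh6, Cdh20, Cdh23 and the neighbours were chosen after their values were seen.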

Additional observations from a re-analysis of the deposited data

Results flagged for a closer look

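Among 72 groups of 4 libraries (33 named genes and the summed clusters, in each genotype), 6 held a library far from the other 3, and chance alone flags about 1 in 20 groups. Of these, 4 concerned knockout replicate 3, the shallowest library with 14.4 M counts. In that library Pcdh15 was at 11.1 CPM while the other knockout libraries lay between 7.35 and 7.84. Pcdh9 was at 81.5 CPM there, over 68.2 to 68.8 in the others. Pcdhgc4 was at 9.56 CPM, over 5.73 to 6.02, and Pcdhgb1 at 1.94 CPM, over 1.423 to 1.501. Fat4 was at 184.4 CPM in knockout replicate 2, under 207.0 to 211.3 in the others. Pcdhga11 was at 11.4 CPM in wild-type replicate 4, over 8.11 to 8.65 in the others.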

How the results depend on the processing

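Among all genes tested, 85 were higher and 130 lower in the knockout. DESeq2 gave 230 and 241, the replicate block 322 and 313, the term for replicates 1 and 2 against 3 and 4 gave 333 and 336, and replicates 1 and 2 alone gave 178 and 202. Leaving out 1 library gave 50 to 66 higher and 92 to 121 lower genes. Of the members, 1 was higher and 0 lower; the replicate block and the replicate-pair term each gave 2 higher (2 of them Cdh genes) and 2 lower (2 single protocadherins), and DESeq2, RLE scaling, no filter, either replicate pair alone and each of the 8 fits without a library called Cdh7 alone. Of the partner list, 1 was called, as in every alternative fit except those without 1 library, which called 0. No gene result reversed its direction past the threshold. The block changed no other member's call. The shallowest library, with 14.4 M counts, and low counts in isoforms of about 1 CPM limit what can be seen there.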
